A study of Mus musculus with 16 samples.

Results

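The comparison covered the GFP+ cells of mice exposed to octanoic acid or to clean air, which were 8 of the 16 arrays of the series. They were chosen by their titles, as odor replicates 1 to 4 and vehicle replicates 1 to 4 of the GFP+ fraction. All mice carried the S100a5-tauGFP reporter, were of both sexes and were 7 to 12 weeks old. The sex makeup of single pools was not given in the sources used here. Each mouse spent 40 h in a clean air chamber with a flow of 3.1 L/min, and pulses of 10 s were delivered every 20 min once 26 h had passed. Odor mice received octanoic acid in these pulses, and vehicle mice received filtered air. Olfactory mucosa of 3 mice was pooled for each sample, dissociated and sorted, so each value is an average over a pool, and the cells of both groups were selected by the same reporter. RNA of each sample, 50 to 100 ng, was hybridized to a Clariom S array, and 19505 named genes were compared. Arrays have no read depth, and the 4 pools in each group limit the precision.

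Olfactory sensory neurons each express 1 odorant receptor gene out of a very large family. Ligand binding opens a cyclic AMP cascade through the G protein subunit Gnal, the adenylyl cyclase Adcy3 and a cyclic nucleotide-gated channel. S100a5 encodes a small calcium-binding protein that these neurons transcribe when they are active, so the reporter marks recently active cells. Octanoic acid is a straight-chain fatty acid odorant, and receptors of class I, the smaller and older branch of the family, include several known to respond to carboxylic acids. The question of the comparison is whether the transcripts of the marked cells differed after this odorant.

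The reporter rests on the S100a5 locus, and the window around its transcription start is shown because the gate that chose all cells of both groups depends on this gene. The sequence is from RefSeq, build GRCm38.p6, plus strand, chr3:90608272-90608571, with 250 bases before the start in lower case and the 50 bases from the start in capitals.
S100a5: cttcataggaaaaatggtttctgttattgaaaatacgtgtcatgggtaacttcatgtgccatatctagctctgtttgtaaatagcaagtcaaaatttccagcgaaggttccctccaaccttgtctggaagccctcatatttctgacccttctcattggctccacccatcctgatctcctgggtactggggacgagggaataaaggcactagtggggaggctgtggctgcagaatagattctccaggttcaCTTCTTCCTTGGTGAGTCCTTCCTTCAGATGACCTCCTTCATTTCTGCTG
Of 3 short motifs searched on both strands, none was spelled in this window. They were the core of the cAMP response element, TGACG, found in 20.8% of 32851 promoter windows of the same length, the AP-1 site TGANTCA, found in 7.81%, and TATAAA, found in 13.6%.

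Signals are log2 values as deposited, on which a difference of 1 is a 2-fold change. As background served 6.35 log2, the middle signal of 5222 negative controls on these 8 arrays. At their 95th percentile the controls reached 10.54, so a signal above the background does not show by itself that a gene was expressed. The 8 markers of mature olfactory neurons, among them Omp, Gnal and Adcy3, all lay between the 98.5th and the 100th percentile of signal. All measured markers of basal and progenitor cells (4 of 4), endothelial cells (3 of 3) and ensheathing glia (3 of 3) were not above the background. Odor replicate 3 stood apart from the other arrays. Its mean correlation with its own group was 0.976, against 0.986 to 0.991 for the others, and it had 269 genes more than 1 log2 above all other arrays and 431 below, against 2 to 17 and 3 to 11. The mean of 7 sustentacular cell genes, which mark the supporting cells of the epithelium, was 11.90 on this array and 9.19 to 10.80 on the other 7. For the differences that this array moved most, the value without it is also given.

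**Figure D1:**
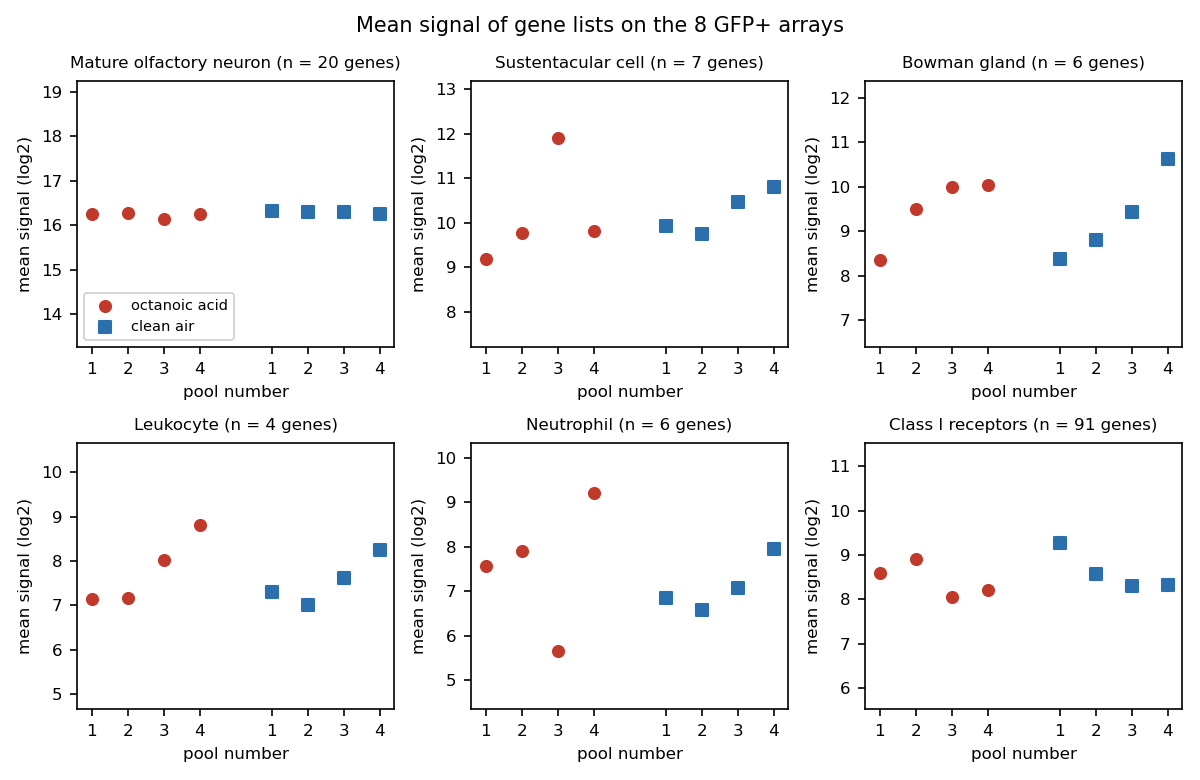
Each panel plots the mean log2 signal of a gene list on the 8 GFP+ arrays, with octanoic acid pools as circles and clean air pools as squares and the pool number on the horizontal axis. Mature neuron genes lie between 16.14 and 16.31 on all arrays, while the sustentacular list reaches 11.90 and the neutrophil list drops to 5.64 on odor replicate 3.

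No gene differed between octanoic acid and clean air at the threshold. Of 19505 genes, 0 passed an adjusted p of 0.05 in limma's moderated test with Benjamini-Hochberg adjustment over all genes (0.0% called), and the smallest adjusted p was 0.955. At an unadjusted p under 0.05 there were 716 genes (3.67%), of which 471 were higher (2.41%) and 245 lower (1.26%) with the odorant. The 4 odor arrays all lay above the 4 vehicle arrays for 242 genes (1.24%) and all below for 205 (1.05%), together 447 genes (2.29%). The higher genes made up 65.8% of the 716, but 51.3% (354 of 690) after quantile normalization and 261 of 307 after centring each array on its receptors, which moved the median of all genes by 0.12 log2. The split turned to 37.5% higher (109 of 291) when only genes above the background were tested, and to 34.3% (148 of 431) when values were floored at the background. The count at an unadjusted p under 0.05 was 1149 without odor replicate 1, 1233 without odor replicate 2 and 430 without vehicle replicate 1, and no gene was called in any of these fits.

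The sizes were small as well. Differences are given as odor minus vehicle, with 95% intervals from the same limma fit. Only 14 genes differed by more than 1 log2, 5 higher and 9 lower, and none differed by more than 2. The largest of the higher values was 1.11 for the gene model Gm20917, and the largest of the lower ones was -1.33 for the class II receptor Olfr1000. For 17103 genes (87.7%) the whole interval lay within 1 log2 of no difference, and the median distance from a difference to the end of its interval was 0.46. Of the 9 lower genes 8 were olfactory receptors, 4 of them of class I (Olfr586, Olfr633, Olfr622 and Olfr553), and all 8 had overlapping groups. Receptors were 1091 of the 19505 genes. Above the background their median within-group SD was 0.56, against 0.27 for other genes. Of the 5 higher genes 1 was a receptor, Olfr99 of class II (1.07), with both group means under the background. Without odor replicate 3, 21 genes differed by more than 1 log2, 13 higher with 8 receptors and 8 lower with 4 receptors. Of the 8 receptors lower on all arrays, only Olfr633 and Olfr231 were still past 1, and Olfr231 lay under the background in both groups. The other of the 9 lower genes was Cenpq, a centromere protein. It gave 7.25, 7.28, 4.53 and 5.97 with octanoic acid and 7.31, 7.50, 7.19 and 7.12 with clean air. Its difference of -1.02 came to -0.45 without odor replicate 3.

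S100a5 itself, by whose reporter the cells were sorted, gave 17.10, 16.49, 16.46 and 16.34 log2 with octanoic acid and 16.76, 16.22, 16.35 and 16.46 with clean air. Replicate 1 was the highest of both groups, and the groups overlapped. The means were 16.60 ± 0.34 and 16.45 ± 0.23 (SD, n = 4 each), a difference of 0.15 with an interval from -0.30 to 0.61. Both groups passed the same gate, so this level describes cells that were chosen for it. The genes that tracked S100a5 most closely over the 8 arrays, once the group means were removed, were Cox6a1 (r = 0.990), Ciz1 (0.978), H1f2 (0.973), Itm2c (0.965) and Mt2 (0.962), the highest of 10725 genes above the background in both groups. These correlations are a description over 8 arrays that also share differences in cell makeup.

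Other activity-dependent genes of olfactory neurons gave no call either. The list of 8 counts S100a5 itself. Of these 8, 7 were measured, 0 passed and 0 had an unadjusted p under 0.05. The median difference, with S100a5 included, was 0.073, against -0.013 over all genes. Lrrc3b, a leucine-rich repeat protein, gave 14.80, 14.14, 13.82 and 15.24 with octanoic acid and 14.13, 13.91, 13.61 and 14.88 with clean air. The pools of each treatment ranked in the same order, replicate 4 highest and 3 lowest. The difference was 0.37 (-0.39 to 1.12), or 0.59 without odor replicate 3. Lrrc3b was higher with octanoic acid in 4 of 4 same-numbered pairs. With the pool number as a block its interval was -0.0077 to 0.74 (adjusted p = 0.826 in limma). Kirrel2, an adhesion molecule whose level in axons follows neuronal activity, differed by 0.12 (-0.59 to 0.83). Pcp4l1, a calmodulin-binding peptide, had -0.26 (-0.83 to 0.30), and Rasgrp4, a Ras exchange factor, had -0.27 (-1.14 to 0.60), or -0.05 without odor replicate 3. The calcium-activated potassium channel Kcnn2 and the glutamate transporter Slc17a6 had differences of 0.07 and -0.03.

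**Figure D2:**
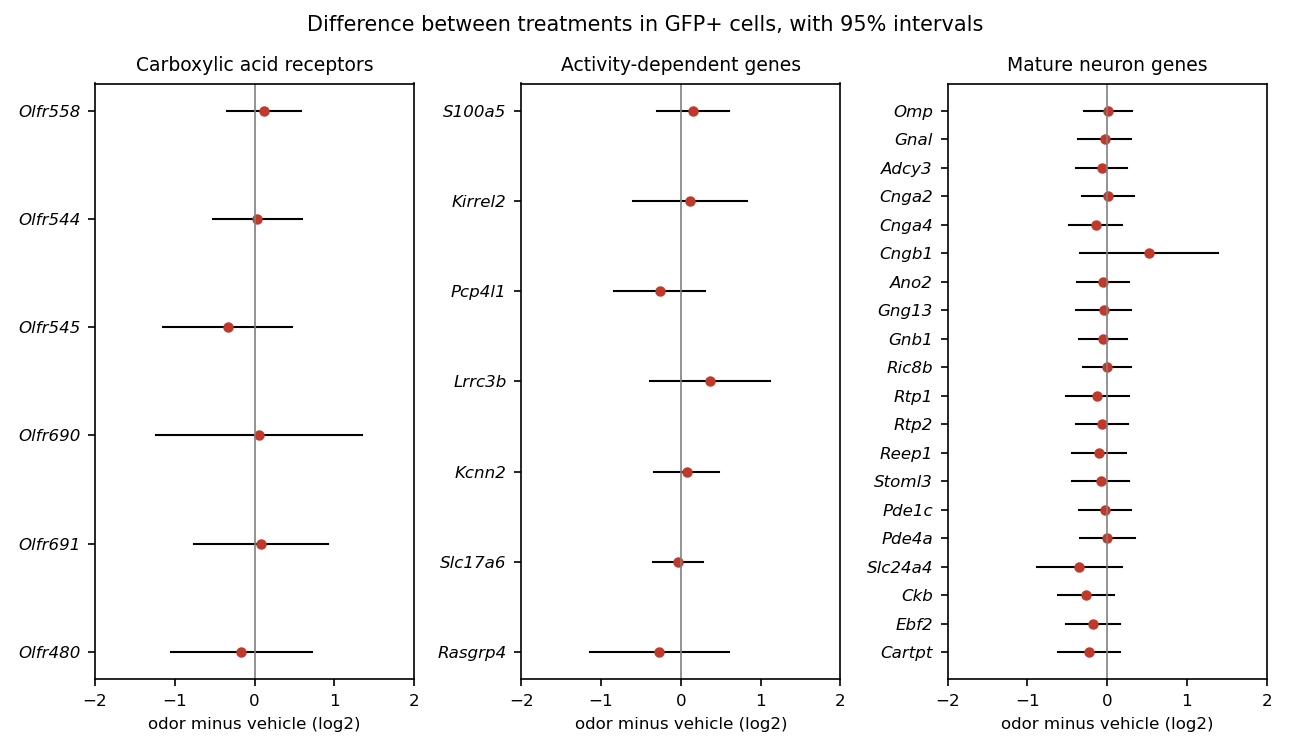
Points give the difference between octanoic acid and clean air in log2 and lines its 95% interval, for the carboxylic acid receptors, the activity-dependent genes and the mature neuron genes, with 4 arrays in each group. All intervals cross 0, and the widest belongs to Olfr690 (-1.23 to 1.35).

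Receptors of carboxylic acids were the family members of most direct interest. Of 7 listed, Olfr78 had no named probe set, 6 were measured, and 3 had a group mean above the background. Olfr544, a class I receptor known for the dicarboxylic azelaic acid, gave 8.11, 7.32, 7.20 and 7.33 with octanoic acid and 7.99, 7.38, 7.11 and 7.35 with clean air. Replicate 1 was high in both groups, and the difference was 0.04 (-0.52 to 0.59). Olfr545, an acid receptor of the same class, gave 7.01, 8.33, 7.74 and 7.14 against 8.82, 7.58, 7.25 and 7.91. The 2 groups covered nearly the same range, with a difference of -0.34 (-1.15 to 0.48). Olfr691, a class I receptor of fatty acids, gave 7.48, 6.89, 6.71 and 7.36 against 7.96, 5.94, 6.79 and 7.45, a difference of 0.08 (-0.76 to 0.92).

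The other 3 had both group means under the background. Olfr558, a class I receptor of short fatty acids, differed by 0.12 (-0.34 to 0.59), and Olfr690, a class I receptor of the same kind, by 0.06 (-1.23 to 1.35). Olfr480, a class II receptor that entered the list through a synonym in the gene table, differed by -0.16 (-1.05 to 0.72). None of the 6 had an unadjusted p under 0.05. For the 3 above the background, Olfr544, Olfr545 and Olfr691, the interval ended below 1, which bounds a higher signal with octanoic acid under 2-fold. Their mean signals of 7.47, 7.72 and 7.07 lay under 10.54, the 95th percentile of the negative controls. The bound therefore holds for the signal and may not hold for the RNA. No such bound follows for the 3 under it.

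Class I as a whole held 121 measured receptors, of which 91 had a group mean above the background and 0 were called. At an unadjusted p under 0.05 there were 2 higher (1.65%) and 3 lower (2.48%), against 2.41% and 1.26% of all genes. The median difference was -0.098, and -0.015 without odor replicate 3, against -0.013 and 0.0056 over all genes. The 5 were Olfr575 (0.64), Olfr663 (0.49), Olfr578 (-0.93), Olfr561 (-0.71) and Olfr671 (-0.44). Of these, Olfr663 and Olfr671 lay under the background in both groups.

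Among these, Olfr578 gave 7.75, 7.52, 8.32 and 7.75 with octanoic acid and 9.87, 8.45, 8.83 and 7.91 with clean air. Vehicle replicate 4 fell within the range of the odor arrays, and vehicle replicate 1 was the highest of all 8. The same array held the highest class I mean of all 8, 9.26 against 8.06 to 8.91 on the others, so the class as a whole varied between pools of 1 treatment. The class I receptor with the brightest signal, Olfr566, gave 12.83 ± 0.38 with octanoic acid and 12.83 ± 0.37 with clean air (SD, n = 4 each). Olfr659 had the largest positive difference of the class, 0.92 (-0.11 to 1.95), and Olfr586 the largest negative one, -1.26 (-3.36 to 0.84). The value of Olfr586 came to -0.29 without odor replicate 3, where its signal was 4.48, against 7.23 to 10.31 on the other odor arrays.

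All 1091 olfactory receptors together gave 0 calls. There were 27 higher (2.47%) and 22 lower (2.02%) at an unadjusted p under 0.05, against 2.41% and 1.26% of all genes. The median difference was -0.035, or 0.026 without odor replicate 3. With the pool number as a block the counts were 52 and 59 of 1091 receptors, against 706 and 352 of all 19505 genes, again with no call. After quantile normalization the median was -0.0037. Class II contributed 25 higher and 19 lower of 970, with a median of -0.026. The receptor median was lowest on odor replicate 3 (8.43) and lay between 8.63 and 9.18 on the other arrays. In bulk samples, fewer cells of a type and less RNA per cell cannot be told apart, and this holds for each receptor and the neurons that express it.

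Receptors varied more between pools than other genes did. The median within-group SD was 0.56 for the 887 receptors above the background and 0.27 for the 10373 other genes above it, at similar median signals of 9.53 and 9.73. It was 0.68 in class I and 0.54 in class II, with median signals of 8.22 and 9.71. Olfr323, the most variable receptor, chosen here after its values were seen, gave 11.19, 5.15, 12.30 and 12.41 with octanoic acid and 10.92, 8.93, 12.15 and 9.24 with clean air. Pools of the octanoic acid group thus differed by up to 7.26 log2, while the treatment means were 10.26 and 10.31.

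These spreads set what could be seen for a single receptor. Of the 887 receptors above the background, 725 (81.7%) had an interval that ended below 1, which bounds a higher signal with octanoic acid under 2-fold. For 878 (99.0%) it ended below 2, and 9 reached that value, the highest being Olfr323 at 3.09. In class I, 71 of 91 (78.0%) ended below 1 and 90 below 2. The median signal of the 887 receptors, 9.53, lay under the 10.54 that controls reached at their 95th percentile. These are therefore bounds on signal, which may not hold for RNA. A lower signal was bounded less often. The interval stayed above -1 for 588 of the 887 receptors and for 44 of the 91 of class I. For 475 of the 887 (53.6%) the whole interval lay within 1 log2, against 87.7% of all genes.

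**Figure D3:**
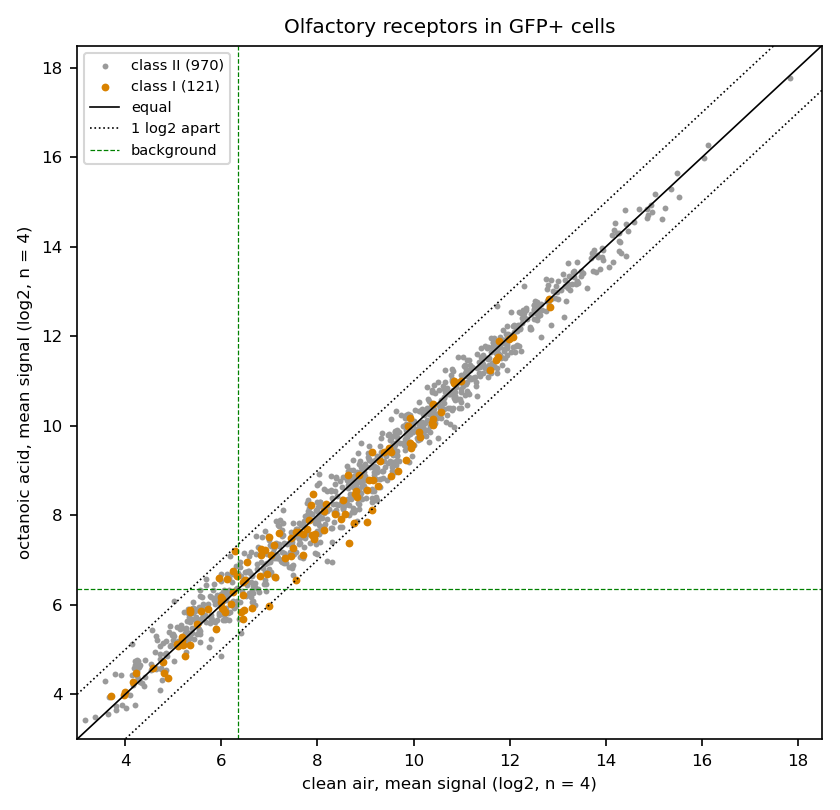
Each point is 1 of 1091 olfactory receptors, with its mean log2 signal on the 4 clean air arrays on the horizontal axis and on the 4 octanoic acid arrays on the vertical axis, and class I in orange. Points follow the line of equal signal from the dimmest to Olfr1264 near 17.8, and 9 cross the dotted lines at 1 log2, among them Olfr1000, at 8.30 on the horizontal and 6.96 on the vertical axis.

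The receptor with the brightest signal was Olfr1264 on all 8 arrays, at 17.89, 17.66, 17.70 and 17.82 with octanoic acid and 17.80, 17.76, 17.67 and 18.09 with clean air. Its difference was -0.06 (-0.41 to 0.28). The other 9 of the 10 brightest, all of class II, differed by -0.55 (Olfr741, or -0.24 without odor replicate 3) to 0.17 (Olfr309), and none of the 10 had an unadjusted p under 0.05. Olfr191 came closest, with 14.86 ± 0.21 with octanoic acid and 15.24 ± 0.25 with clean air (SD, n = 4 each), a difference of -0.38 (-0.78 to 0.02). Probe sets bind their targets unequally, so the rank of a signal is not a rank of RNA amounts.

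The receptors of smallest p are described here as the upper end of what the comparison gave, and each had an adjusted p of 0.955 in limma. Olfr1410, of class II, gave 12.66, 13.38, 13.19 and 13.26 with octanoic acid and 12.10, 12.36, 12.64 and 12.11 with clean air. All 4 odor arrays lay above all 4 vehicle arrays, the nearest pair by 0.02, and the difference was 0.82 (0.37 to 1.27, unadjusted p = 0.00215). Olfr9 was also separated, at 8.72 ± 0.28 against 8.03 ± 0.32 (SD, n = 4 each), a difference of 0.70 (0.24 to 1.15). Olfr1353 differed by 0.83, Olfr237 by 0.59 and Olfr870 by 0.70, each with overlapping groups.

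On the other side, Olfr1501 gave 10.94, 11.34, 11.58 and 11.11 with octanoic acid and 12.04, 11.67, 12.15 and 11.90 with clean air. Its groups were separated too, with a difference of -0.70 (-1.11 to -0.28, unadjusted p = 0.00347). Olfr1111 (-0.55) and Olfr854 (-0.68) did not overlap either, while Olfr1286 (-0.75) and the pseudogene Olfr911-ps1 (-0.67) did. All 10 of these receptors belonged to class II. Over the whole family, 4 of 1091 receptors lay wholly above the vehicle arrays and 5 wholly below, against 1.24% and 1.05% of all genes.

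**Figure D4:**
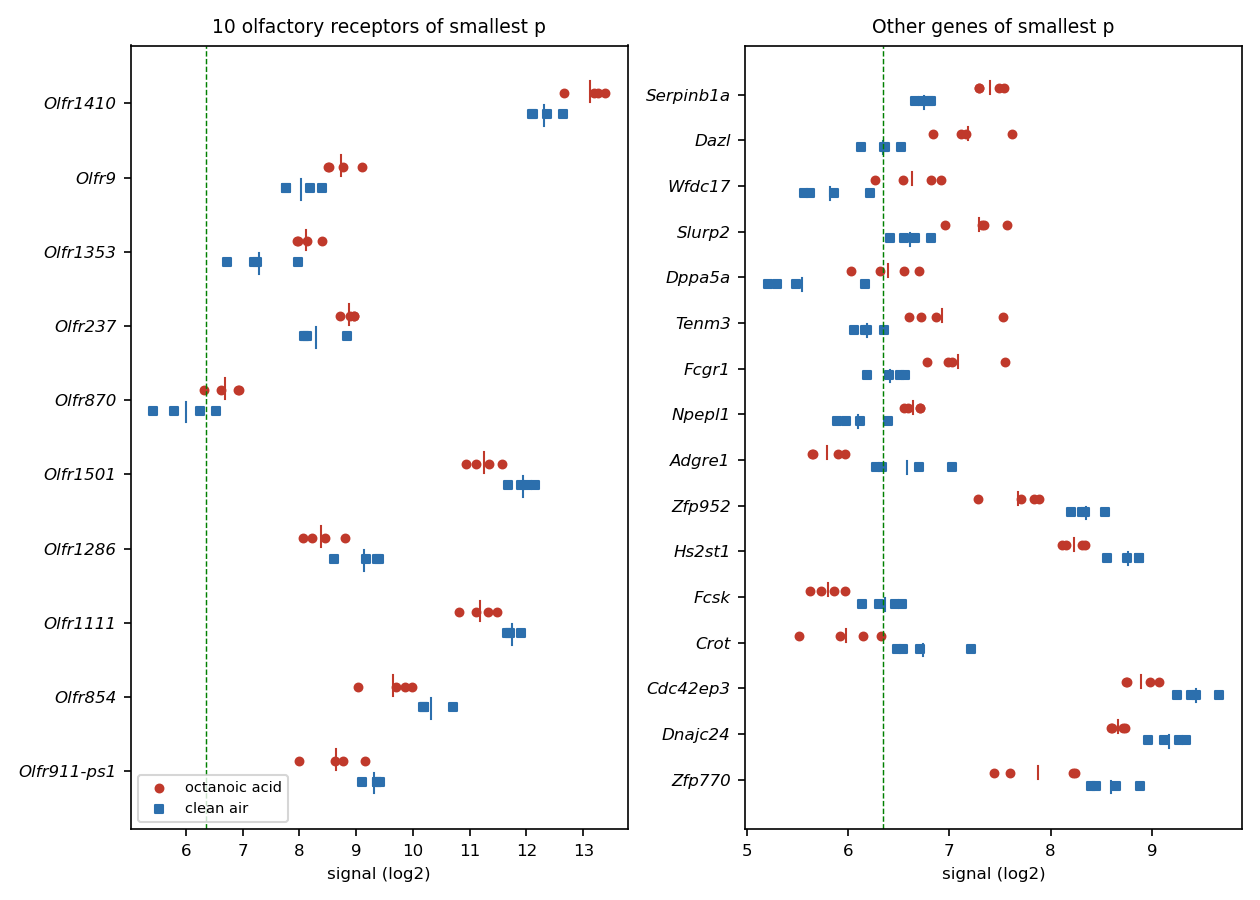
Signals (log2) on the 4 octanoic acid arrays (circles) and the 4 clean air arrays (squares) for the 10 receptors and the 16 other genes of smallest unadjusted p, with group means as ticks and the background as the dashed line. Olfr1410 and Olfr9 are separated with the odorant higher and Olfr1501, Olfr1111 and Olfr854 with it lower, and most of the other genes lie near the background.

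Trace amine-associated receptors, a small separate family of amine receptors in the dorsal epithelium, gave 0 calls among 15 members, 12 above the background. Their median difference was -0.10, or 0.027 without odor replicate 3. Taar9, the brightest, gave 13.05, 11.78, 12.13 and 12.86 with octanoic acid and 13.47, 12.39, 12.82 and 12.54 with clean air, a difference of -0.35 (-1.05 to 0.35). Taar7f had 0.50 (-0.02 to 1.02), or 0.70 without odor replicate 3, and Taar8c had -0.50 (-1.50 to 0.50). With the pool number as a block the interval of Taar7f was 0.0088 to 0.99 (adjusted p = 0.826 in limma). Members of this family resemble each other closely, so probe sets of Taar7 and Taar8 genes may share targets.

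Vomeronasal receptors, normally found in the vomeronasal organ, gave 0 calls among 319 genes, and only 20 were above the background. At an unadjusted p under 0.05, 23 were higher (7.21%) and 7 lower (2.19%), against 2.41% and 1.26% of all genes, and the median was 0.097, or 0.020 without odor replicate 3. Vmn1r143 had the largest positive difference above the background, 0.97 (0.25 to 1.69), and its highest signal, 7.35, was on odor replicate 3. The brightest, Vmn2r29, gave 11.73 ± 0.29 with octanoic acid and 11.75 ± 0.14 with clean air (SD, n = 4 each).

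Genes of the transduction cascade had narrow intervals around 0. All 20 mature neuron genes were above the background, 0 were called, 0 had an unadjusted p under 0.05, and the median difference was -0.057, or -0.0038 without odor replicate 3. Differences were 0.02 (-0.29 to 0.32) for the olfactory marker protein Omp, -0.03 (-0.36 to 0.30) for Gnal and -0.07 (-0.39 to 0.25) for Adcy3. The channel subunits Cnga2 and Cnga4 gave 0.01 and -0.15, and the calcium-activated chloride channel Ano2 gave -0.05 (-0.37 to 0.27). For 19 of the 20 genes the interval lay within 1 log2.

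The exception was Cngb1, the third subunit of the channel, at 6.72, 6.69, 8.66 and 6.94 with octanoic acid and 6.59, 7.08, 6.70 and 6.53 with clean air. Only odor replicate 3 was high, and the difference of 0.53 came to 0.06 without it. The transcription factor Ebf2 had odor arrays wholly below the vehicle arrays, with a difference of -0.17 (-0.51 to 0.17). The receptor chaperones Rtp1 and Rtp2, which carry receptors to the cell surface, differed by -0.12 and -0.06.

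Genes that end the response gave 0 calls. Of 11 symbols listed for shut-off genes, 8 matched a measured gene and 6 of these were above the background, with a median of -0.059. The phosphodiesterases Pde1c and Pde4a, which break down cyclic AMP, differed by -0.03 and 0.0041. The sodium-calcium exchanger Slc24a4, which ends the response by clearing calcium, gave 13.44, 13.47, 12.62 and 13.72 with octanoic acid and 13.84, 13.35, 13.84 and 13.61 with clean air. Odor replicate 3 was the lowest, and the difference of -0.35 came to -0.12 without it. The receptor kinase Grk3 had the only unadjusted p under 0.05 in the list, with 0.47 (0.06 to 0.87), from signals under the background in both groups.

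Immediate early genes, which neurons switch on within minutes of activity, gave 0 calls and 0 unadjusted p under 0.05 among 20 members, 13 above the background. Their median was -0.11, or 0.0040 without odor replicate 3. Fos differed by -0.18 (-0.94 to 0.59), Fosb by 0.27 (-0.31 to 0.84), Egr1 by -0.05 (-0.86 to 0.77) and Nr4a1 by 0.28 (-0.45 to 1.02). Atf3, a stress and injury response factor, gave 9.69, 9.52, 9.04 and 9.27 with octanoic acid and 8.97, 10.10, 10.13 and 10.31 with clean air. Vehicle replicate 1 was the lowest of all 8 arrays, while the other 3 vehicle arrays were the highest, and the difference was -0.50 (-1.13 to 0.14). Dusp1, a phosphatase induced by stress and activity, was the brightest member, at 16.96 ± 0.35 and 16.88 ± 0.18 (SD, n = 4 each).

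Axon sorting genes, several of which olfactory neurons set by activity, gave 0 calls among 16 measured members, with a median of 0.032. Kirrel3, which axons carry in a pattern complementary to Kirrel2, differed by 0.13 (-0.25 to 0.52), the protocadherin Pcdh10 by 0.26 (-0.49 to 1.02) and Sema7a, a semaphorin of olfactory axons, by 0.26 (-0.21 to 0.74). Without odor replicate 3 these values were larger, at 0.27, 0.62 and 0.44. Tenm4, a teneurin, had the largest positive value on all 8 arrays, 0.33, which came to 0.03 without odor replicate 3. Sema3a had -0.37 with and without that array. Genes of the dorsal and ventral zones of the epithelium (9 measured) had a median of -0.066. Their dorsal marker Nqo1 gave 15.47 ± 0.16 and 15.49 ± 0.17 (SD, n = 4 each).

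Genes of receptor choice and folding (12 of 12 above the background) had 0 calls and a median of -0.046. Lhx2 and Ebf1, transcription factors that receptor promoters need, differed by -0.25 (-0.74 to 0.24) and -0.06 (-0.39 to 0.27). Kdm1a, the demethylase that allows a receptor to be chosen, had -0.23 (-0.66 to 0.21), and Atf5, which relays the feedback from the first receptor made, had -0.01. Trib3, a target of the unfolded protein response, had the largest value of the list, -0.59 (-1.57 to 0.39). It rested on odor replicate 3, at 7.74 against 9.29 or more on the other arrays, and came to -0.10 without it.

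Fatty acid metabolism was examined because octanoic acid is also a metabolic fuel. Crot, carnitine O-octanoyltransferase, which transfers medium-chain acyl groups in peroxisomes, was among the 10 lower genes of smallest p. It gave 6.33, 5.92, 5.52 and 6.15 with octanoic acid and 6.71, 6.54, 7.21 and 6.48 with clean air. All odor arrays lay below all vehicle arrays and also below the background, and the difference was -0.76 (-1.26 to -0.26, unadjusted p = 0.00634), with an adjusted p of 0.955 in limma. Since the odor level is at the background, the size is uncertain.

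Fatty acid oxidation and storage genes as a list (14 measured, 7 above the background) had 0 calls and a median of 0.0012. Cpt1a, which starts the mitochondrial import of long fatty acids, gave 6.59, 6.07, 5.62 and 6.02 against 6.55, 6.36, 6.70 and 6.68. Its groups overlapped through odor replicate 1, and the difference was -0.49 (-0.96 to -0.03), the only unadjusted p under 0.05 in the list. The odor mean of Cpt1a, 6.08, lay under the background, and the difference came to -0.34 without odor replicate 3. Acadvl and Acadm, the very-long-chain and medium-chain acyl-CoA dehydrogenases, differed by -0.37 (-0.78 to 0.04) and 0.13 (-0.30 to 0.57), and Hadhb, of the trifunctional protein, by 0.17, or 0.08 without odor replicate 3. Acsm4, a medium-chain acyl-CoA synthetase found in olfactory mucosa, was the brightest, at 12.67 ± 0.34 and 12.74 ± 0.20 (SD, n = 4 each).

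Non-olfactory fatty acid receptors and carriers (13 measured, 5 above the background) gave 0 calls, with a median of -0.057. The scavenger receptor Cd36, which a subset of olfactory neurons carries, differed by -0.06 (-0.45 to 0.34), and the transporter Slc27a2 by -0.12 (-0.44 to 0.19). Gpr84, a receptor of medium-chain fatty acids, and Ffar1, a receptor of medium and long ones, were not above the background in either group. Ffar3, a receptor of short fatty acids, had 0.31, which came to -0.06 without odor replicate 3.

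**Figure D5:**
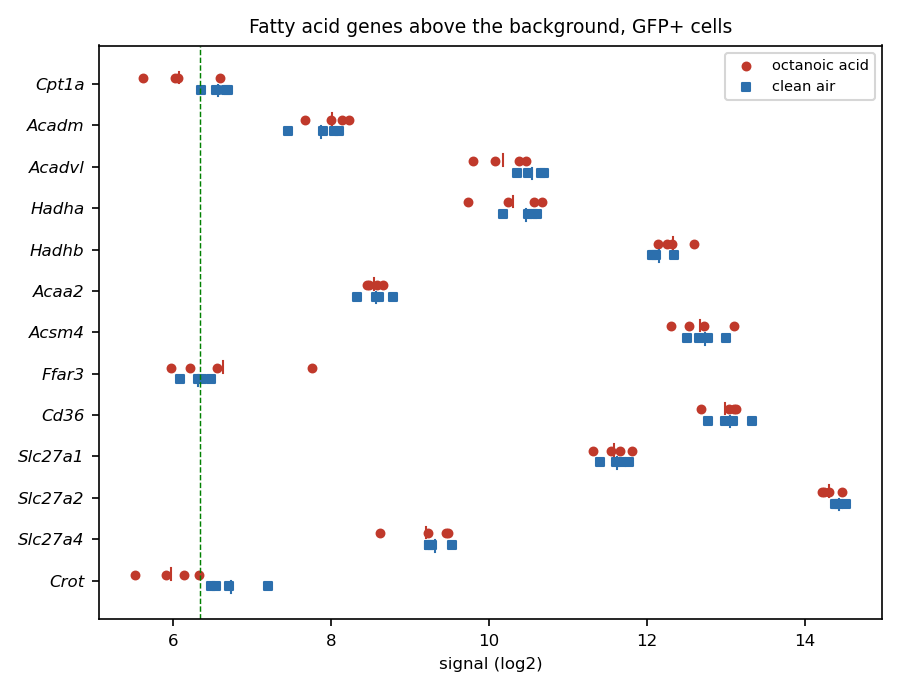
Signals (log2) on the 4 octanoic acid arrays (circles) and the 4 clean air arrays (squares) for the fatty acid genes with a group mean above the background and for Crot, with group means as ticks and the background as the dashed line. Crot is separated between treatments next to the background, and the groups of the other genes overlap.

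The remaining genes of smallest p were mostly dim. Serpinb1a, an inhibitor of neutrophil proteases, gave 7.54, 7.49, 7.29 and 7.30 with octanoic acid and 6.67, 6.82, 6.80 and 6.73 with clean air. The groups were apart by 0.47 and the SDs were 0.13 and 0.07, and the difference was 0.65 (0.33 to 0.97, unadjusted p = 0.00101). Dazl, a germ cell RNA-binding protein, had 0.85, Wfdc17, a myeloid secreted protein, 0.82, Fcgr1, an Fc receptor of macrophages, 0.67, and the teneurin Tenm3 0.74. Slurp2 (0.69), the pluripotency gene Dppa5a (0.86) and Npepl1 (0.55) completed the higher genes.

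Of the lower genes, Adgre1, the macrophage surface protein F4/80, gave 5.64, 5.66, 5.90 and 5.97 with octanoic acid and 6.28, 6.34, 7.02 and 6.70 with clean air. The odor arrays lay under the background, and the difference was -0.79 (-1.23 to -0.36). Fcgr1 and Adgre1, both of macrophages, thus had differences of opposite sign. Further from the background were Hs2st1, a heparan sulfate sulfotransferase (-0.53), Dnajc24, which takes part in diphthamide synthesis (-0.51), and the zinc finger genes Zfp952 (-0.67) and Zfp770 (-0.72). Fcsk, a fucose kinase, had -0.56. The 26 receptors and other genes of smallest p kept the sign of their differences in the 23 alternatives wherever they were tested, and none was called. These genes were chosen on the same arrays. Alternatives that changed only the variance model or added the block could not turn a sign, so the kept signs are a description only.

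Genes of other cell types varied widely between pools. Cyp2g1, an odorant-metabolizing enzyme of sustentacular cells, gave 13.07, 13.32, 16.34 and 13.60 with octanoic acid and 14.06, 13.84, 14.94 and 14.67 with clean air. Odor replicate 3 was the highest and the other 3 odor arrays the lowest, so the difference was -0.30 (-1.66 to 1.07) with that array and -1.05 without it. The 11 measured sustentacular genes had a median of 0.092, or -0.46 without the array, and the 11 odorant metabolism genes had -0.023, or -0.61. The summed sustentacular markers ranged from 13.25 to 16.47 log2 with octanoic acid, or to 13.76 without replicate 3, and from 13.98 to 15.04 with clean air, and 1 of 6, Ermn, was not above the background. With the mean of the sustentacular genes as a covariate 0 genes were called, 1590 had an unadjusted p under 0.05, and the smallest adjusted p in limma was 0.559.

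Of the 11 measured neutrophil genes, 7 had their lowest signal on odor replicate 3 and 2, Camp and Cebpe, their highest. Lcn2, an iron-scavenging protein of neutrophils and glands, gave 8.66, 8.66, 5.78 and 11.22 with octanoic acid and 7.54, 7.85, 7.55 and 9.36 with clean air, so both extremes were odor pools, and the difference of 0.50 came to 1.44 without replicate 3. These genes had a median difference of 0.46, the highest of the 32 lists, and 0 were called. Without odor replicate 3 it was 0.87. Camp, an antimicrobial peptide, had the only unadjusted p under 0.05, with 0.86 (0.15 to 1.58), from signals under the background in both groups. All 4 defining markers were above the background, and their summed level ranged from 7.89 to 11.29 log2 with octanoic acid and from 8.44 to 10.24 with clean air.

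Pools of the same number resembled each other across treatments in several of these genes. Obp2a, an odorant-binding protein of Bowman glands, gave 10.96, 11.25, 12.61 and 14.07 with octanoic acid and 10.46, 9.38, 12.39 and 14.67 with clean air. Replicate 4 was the highest of both treatments and replicate 3 the next. Apoe, a lipid carrier of glia and macrophages, gave 11.86, 10.65, 13.85 and 14.56 against 12.33, 10.96, 13.45 and 14.53, in the same order in both. The macrophage and leukocyte protein Laptm5 was also highest in replicate 4 of both, at 10.32 and 9.64. Differences between treatments were 0.50 (-1.78 to 2.78), -0.09 (-2.07 to 1.89) and -0.01 (-1.22 to 1.19). Without odor replicate 3 they were 0.37, -0.46 and -0.12. With the pool number as a block the intervals of Obp2a, Apoe and Laptm5 were narrower. They ran from -0.30 to 1.30, from -0.53 to 0.35 and from -0.51 to 0.49. The brightest Bowman gland gene, Bpifb9b, went the other way in replicates 3 and 4. It gave 14.52 and 11.74 there with octanoic acid, against 11.56 and 14.63 with clean air. Its interval was -1.85 to 1.58 without the block and no narrower with it, at -1.87 to 1.60.

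Markers of the other cell types gave no call, with medians of 0.083 for Bowman glands (11 measured), 0.12 for leukocytes (10), 0.077 for microvillous and tuft cells (10), 0.29 for erythroid cells (3), 0.057 for ensheathing glia (6), 0.020 for endothelial cells and fibroblasts (9), -0.052 for respiratory ciliated cells (6) and 0.037 for the guanylyl cyclase D neurons (6). Foxi1, a transcription factor of ionocytes, gave 6.96 ± 0.27 and 6.42 ± 0.29 (SD, n = 4 each), and Pdgfrb, a pericyte receptor, 6.71 ± 0.16 and 6.24 ± 0.17. Both had an unadjusted p under 0.05, and both lay close to the background. Progenitor and basal genes (7 measured) were all under it, with a median of -0.025.

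Immature neuron genes (15 measured) had a median of -0.040. Gap43, a growth cone protein, differed by 0.21 (-0.17 to 0.59) and Dcx, a microtubule protein of migrating neurons, by 0.05 (-0.29 to 0.40). Cell cycle genes (13 measured, 5 above the background) had a median of 0.20. Birc5, survivin, gave 6.20, 5.89, 6.92 and 6.44 with octanoic acid and 5.58, 5.80, 5.84 and 5.57 with clean air. Its difference was 0.66 (0.18 to 1.14), the only unadjusted p under 0.05 in that list, and 0.48 without odor replicate 3. The clean air mean of Birc5, 5.70, lay under the background and its odor mean, 6.36, next to it. The proliferation markers Mki67 and Top2a were under the background, with differences of -0.04 and -0.03.

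Circadian clock genes had 0 calls among 13 and a median of -0.0087. Per1 differed by 0.08, Per2 by 0.02 and Nr1d1 by 0.11 (-0.29 to 0.51). Heat shock genes (8 measured) had a median of -0.11, or 0.0093 without odor replicate 3, and Dnajb1 had the largest value, -0.29 (-0.77 to 0.19), or -0.12 without that array. Across the 32 lists, 28 had a median within 0.15 log2 of 0.

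Y-linked genes differed between pools. Kdm5d gave 6.66, 7.84, 6.88 and 7.21 with octanoic acid and 7.47, 7.83, 7.85 and 8.49 with clean air, a difference of -0.76 (-1.39 to -0.14, unadjusted p = 0.0211, adjusted p = 0.955 in limma). Uty differed by -0.29 (-1.03 to 0.45) and Eif2s3y by -0.19 (-1.17 to 0.78). The groups overlapped in all 3, and the part of the pools' sex makeup in other results was not tested beyond a fit with these genes as a covariate, which also called 0 genes.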

How the data were processed

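Per the submitters' processing notes the authors made the deposited log2 signals, 1 per probe set and array, with Affymetrix Expression Console. Its version, summary method, background step and normalization are not given in the sources used here. That the scale is log2 follows only from the range of the values, 2.13 to 19.52.

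Of 28846 probe sets, 6640 were controls and 2634 had no gene symbol. For genes with several probe sets only the brightest entered (67 dropped). The resulting 19505 genes were all matched by Entrez identifier to the RefSeq gene table of GRCm38.p6. The 8 columns of GFP- arrays were not used. Receptor class came from the older MOR family number in the synonyms (1069 receptors) or from neighbouring receptors (22).

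Odor and vehicle arrays, 4 against 4, were compared by a two-sided moderated test (R 4.3.3, limma 3.58.1, functions lmFit and eBayes; 6 residual and 4.64 prior degrees of freedom), with Benjamini-Hochberg adjustment over all genes at 0.05. The script was tested on simulated data. "Above the background" means a group mean above the negative-control median. No list was tested as a set.

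Genes chosen to be named were S100a5, the 10 brightest receptors and the carboxylic acid receptors. Added were the 10 higher and 10 lower genes and the 5 higher and 5 lower receptors of smallest unadjusted p above the background. Gene models were left out of these. Each other list gave its brightest member and those with the largest differences either way, and several of these are not described in the text. Other list members are named where a list is described. One of the 10 lower genes is not reported here. The members and the 32 lists were chosen with earlier results of these data known.

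Odor and vehicle pools share replicate numbers in the labels. Same-numbered pools deviated together, with correlations of 0.371, 0.100, 0.219 and 0.138, so the numbers were taken as pairs on the evidence of the data, weakly for number 2, which correlated up to 0.228 with another number. The unblocked fit is the one reported, so intervals and p-values ignore this pairing unless a block is named. With the block 91.4% of genes had an interval within 1 log2, against 87.7% without it. Alternatives changed scaling, filter, floor, probe set rule, variance model, covariates and arrays left out.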

Additional observations from a re-analysis of the deposited data

Results flagged for a closer look

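Within each group of 4 arrays, 14 of the 228 groups formed by the 114 named genes and the 2 treatments held 1 array far from the other 3 (6.14%), where chance flags about 5% of groups (Dixon's test). Of these, 6 were on odor replicate 3. There, Cyp2g1 (16.34), Dcn, a matrix proteoglycan of fibroblasts (8.25), and Cngb1 (8.66) were the highest of their group. On the same array Stoml3, a stomatin-like protein of olfactory cilia (18.96), Gfy, a Golgi protein of olfactory neurons (18.66), and Olfr1000 (4.57) were the lowest. Without that array the difference of Cyp2g1 was -1.05, of Dcn -0.67, of Cngb1 0.06, of Stoml3 0.03, of Gfy 0.09 and of Olfr1000 -0.54.

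The other 8 were spread over 5 arrays. Olfr544 was high on odor replicate 1 (8.11) and Olfr480 on odor replicate 2 (6.32). In clean air Olfr854 (10.70) and the fatty acid transporter Slc27a4 (9.53) were high and Atf3 (8.97) was low on replicate 1. Vehicle replicate 2 was high for Olfr237 (8.83) and low for Olfr1000 (6.58), and vehicle replicate 4 was high for Lcn2 (9.36).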

How the results depend on the processing

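No gene was called in any of the 23 alternatives, and the smallest adjusted p in limma ranged from 0.559 with a sustentacular covariate to 0.99995 after receptor centring, and from 0.646 to 0.99992 with 1 array left out. The count at an unadjusted p under 0.05, 716 as deposited, was 1590 with that covariate, 459 with a Y-linked covariate, 431 with values floored at the background, 307 after receptor centring and 291 among genes above the background, and 547 to 1233 without an odor replicate and 430 to 768 without a vehicle replicate. The replicate block on the pool number gave 1058 such genes and a smallest adjusted p of 0.826, and changed no call. Without variance moderation the count was 696. Intervals within 1 log2 made up 79.7% to 93.5% of genes when 1 array was left out. Of the 114 named genes, 47 changed the sign of their uncalled difference in at least 1 alternative. The planned Xist covariate was not run because no probe set is named for Xist, and the Y-linked covariate and the quantile normalization without odor replicate 3 were added after seeing the data. Dim genes near the background are limited most, since their differences rest on signal that controls also reach.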
